A study of Mus musculus with 139 samples.

Results

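The inner hair cells (IHCs) of this series are 87 of its 139 single-cell libraries, chosen as every cell whose title and sample label give inner hair cell, with no use of its expression. They came from the mouse cochlea between postnatal days 14 and 16, 34 of them apical, 34 from the middle turn and 19 basal. The other 52 libraries are outer hair cells (OHCs), 21 apical, 23 middle and 8 basal, and serve here only as the neighbouring cell type. The labels give all cells the same tissue and age range and name no genotype change, treatment or animal. Each labelled group was therefore counted as 1 sample, and the spread between cells is given as a description, with no test. The number in each title splits the IHCs into 2 library series, 37 cells numbered above 100 (the higher series; 17 apex, 13 middle, 7 base) and 50 cells numbered up to 100 (the lower series; 17 apex, 21 middle, 12 base). The labels do not say what the numbers stand for.

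IHCs are the receptor cells of hearing. Deflection of their stereocilia opens transduction channels, the depolarised cell admits calcium through presynaptic channels, and vesicles held at synaptic ribbons release glutamate onto the auditory nerve. Otof encodes otoferlin, the calcium sensor of vesicle fusion at this synapse, and Slc17a8 encodes the vesicular glutamate transporter that fills the vesicles. Slc7a14 belongs to a family of cationic amino acid transporters, Atp2a3 encodes a calcium pump of the endoplasmic reticulum, and Tbx2 encodes a T-box transcription factor that sets inner against outer hair cell identity. These 5 genes are the markers used to check the label. On GRCm38 the GENCODE annotation places Otof on the minus strand of chromosome 5 from 30367062 to 30461932, and Slc17a8 on the minus strand of chromosome 10 from 89574020 to 89621253. It places Slc7a14 on the minus strand of chromosome 3 from 31202858 to 31310378, Atp2a3 on the plus strand of chromosome 11 from 72961169 to 72993044, and Tbx2 on the plus strand of chromosome 11 from 85832551 to 85841948. All 5 are protein-coding, and counts are summed over their exons.

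The promoters of Slc17a8, Slc7a14 and Atp2a3 are shown because these genes are among the 5 markers used to check the label. RefSeq windows on GRCm38.p6 were matched for 3 of the 5 markers, and Otof and Tbx2 had no entry. Each run is taken from the 250 bases before the RefSeq transcription start, read 5′ to 3′ on the gene's strand. Bases that lie inside the gene as GENCODE places it were left out, 4 for Slc17a8 and 59 for Slc7a14, and of the 2 RefSeq windows of Slc17a8 the one nearest the GENCODE start is shown. The runs cover chr10:89621254-89621499 on the minus strand for Slc17a8, chr3:31310379-31310569 on the minus strand for Slc7a14 and chr11:72960919-72961168 on the plus strand for Atp2a3. Capitals mark the letters AGGTGT and GGGCGG on either strand.
Slc17a8: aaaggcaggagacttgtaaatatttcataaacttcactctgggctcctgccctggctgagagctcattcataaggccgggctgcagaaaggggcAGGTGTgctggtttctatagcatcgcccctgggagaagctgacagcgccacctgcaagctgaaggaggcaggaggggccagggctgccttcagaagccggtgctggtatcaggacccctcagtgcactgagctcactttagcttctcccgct
Slc7a14: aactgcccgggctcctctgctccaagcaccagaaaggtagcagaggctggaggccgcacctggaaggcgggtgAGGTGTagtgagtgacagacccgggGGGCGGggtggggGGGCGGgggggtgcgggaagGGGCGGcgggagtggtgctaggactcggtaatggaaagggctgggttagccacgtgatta
Atp2a3: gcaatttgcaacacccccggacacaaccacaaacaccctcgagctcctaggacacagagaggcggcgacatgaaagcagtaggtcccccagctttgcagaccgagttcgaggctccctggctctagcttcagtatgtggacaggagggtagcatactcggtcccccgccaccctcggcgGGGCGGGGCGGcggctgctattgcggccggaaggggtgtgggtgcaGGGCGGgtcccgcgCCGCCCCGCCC
The letters AGGTGT, the core of a T-box site, occurred at position 95 of the Slc17a8 run and position 74 of the Slc7a14 run, and not in that of Atp2a3. Of all 32851 windows 11.8% held AGGTGT in their 250 bases, and 9.46% in the 191 that match the Slc7a14 run. The GC box GGGCGG occurred 3 times before Slc7a14 and 5 times before Atp2a3, where neighbouring matches share letters, and in 32.7% of all windows. The TATA box, spelled TATAAA, was in none of the 3 runs and in 12.4% of all windows. CANNTG, the E-box, matched at 2 places each before Slc17a8 and Slc7a14 and at 0 before Atp2a3, against 66.2% of all windows, and is not in capitals. The Slc17a8 match at position 94 overlaps AGGTGT. A match is a run of letters and says nothing about binding.

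The IHC libraries held 103101 to 13322238 counts, with a median of 5497960 against 2912570 in OHCs, and a median of 6399 detected genes. The median was 7187090 counts for higher numbers and 4431710 for lower ones. To compare detection at 1 depth, each cell was thinned at random to 500000 counts, which 83 of 87 IHCs (36 higher, 47 lower) and 45 of 52 OHCs reached. At that depth the higher series still detected a median of 5206 genes per cell and the lower series 2690. The ranges overlapped, from 2002 to 9965 genes in the higher and 1450 to 12608 in the lower series. The parts of library series and of number of detected genes in other differences were not separated. Marker levels are therefore given in both series, while shares of cells stated without a series pool them.

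Among the 87 libraries, 12 stood apart by depth, gene number, composition or markers. In 6 of them Ocm and Slc26a5, which encode the OHC calcium buffer oncomodulin and the OHC motor prestin, together exceeded Otof and Slc17a8. These were apical cells A_i_106, A_i_110, A_i_120 and A_i_17 and middle cells M_i_52 and M_i_53. Apical cell A_i_110 had 0.984 counts per 1000000 (CPM) of Otof beside 1523 CPM of Ocm, 3978 CPM of Ikzf2 and 7524 CPM of Bmp3, all OHC genes, while A_i_120 had no read of any of the 5 IHC markers. Middle cell M_i_52 stood at 3.13 CPM of Otof and 7.99 CPM of Ocm with 27575 genes detected, the most of any library. The outer and inner sums were close in A_i_106, at 1691 and 1565 CPM, and in M_i_53, at 1816 and 1754 CPM. These 2 cells had 5 and 4 of the IHC markers at 10 CPM or more. In A_i_17 the sums were 67.9 and 0 CPM in a library of only 103101 counts. Few genes (under 3000) were detected in apical cells A_i_111, A_i_14 and A_i_17 and middle cells M_i_29 and M_i_30, and mitochondrial transcripts exceeded 10% in apical cell A_i_19 and basal cell B_i_102. All 87 cells were kept as labelled, and values without the 12 follow here. The share of cells with 4 or more markers, described below, became 85.3%, the genes read in 90% of IHCs 174 in place of 151, and the median similarity of IHC pairs of the same series 0.321 in place of 0.298. The medians of Slc17a8 and Slc7a14 became 294 and 440 CPM in place of 211 and 277.

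Apical cells A_i_113 and A_i_115 resembled each other more than any other pair of IHCs. Spearman's correlation of their log2(CPM + 1) over 15001 genes was 0.864, while the next closest pair, middle cells M_i_107 and M_i_117, reached 0.632. The apical pair shared 71.0% of the genes detected in either, against a median of 24.1% over all pairs. Their Otof levels were 1716 and 15886 CPM. Whether these libraries share cells or reads was not tested. By Pearson's correlation the closest pair was apical cells A_i_8 and A_i_9 at 0.745. Without these 4 cells 142 genes were read in 90% of IHCs, and the share with 4 or more markers was 82.3%.

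The label held for most cells. After thinning, 68 of 83 IHCs (81.9%, exact Clopper-Pearson interval 72.0 to 89.5% at 95%, which covers counting error only) had a read of at least 4 of the 5 markers, against 1 of 45 OHCs (2.22%). By series the share was 91.7% of higher cells (33 of 36) and 74.5% of lower cells (35 of 47). At 10 CPM or more without thinning, all 5 markers were present in 30 of 37 higher cells and in 2 of 50 lower cells, and in 0 of 52 OHCs. Of thinned lower cells 87.2% had a read of Slc17a8, 57.4% of Slc7a14 and 46.8% of Tbx2.

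Otof and Atp2a3 were the most uniform of the markers. Otof had a median of 3875 CPM over the 87 cells, with a lowest value of 0 and a highest of 18826, and 74 cells stood above 1000 CPM. In OHCs its median was 2.08 CPM. Apical, middle and basal medians were 4120, 3204 and 5728 CPM, with highest values of 18826, 8928 and 14552 CPM, so the regions overlapped. Higher cells had a median of 4550 CPM and a coefficient of variation (SD divided by mean) of 0.68, and lower cells 3548 CPM and 0.97. Atp2a3 had medians of 1959 and 878 CPM in the higher and lower series, with coefficients of variation of 0.90 and 0.98, and 83 of 87 cells reached 10 CPM. In OHCs its median was 0.219 CPM.

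Slc17a8 was present in most cells at widely spread levels. Higher cells ran from 0 to 1711 CPM with a median of 337, and lower cells from 0 to 5397 with a median of 124. Of the 50 lower cells 13 exceeded 1000 CPM while the lower quartile stood at 3.10 CPM, so this series held both the highest and many of the lowest values. In the base of the lower series the median was 2.52 CPM over 12 cells and the upper quartile 1529 CPM. OHCs had a median of 0 and a highest value of 51.5 CPM.

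Slc7a14 and Tbx2 were the markers whose cell-to-cell pattern differed most between the series. Slc7a14 reached 10 CPM in 34 of 37 higher cells, with a median of 1154 CPM, and in 19 of 50 lower cells, with a median of 1.90 CPM and a highest value of 5212 CPM. Tbx2 reached 10 CPM in 31 of 37 higher cells and 11 of 50 lower cells, with medians of 216 and 0.839 CPM. Within the higher series apical, middle and basal cells had medians of 72.0, 387 and 451 CPM, and the highest apical value was 334 CPM. In OHCs both had medians of 0. A read alone of 1 marker does not mark an IHC. Of thinned OHCs 57.8% had a read of Otof, 35.6% of Atp2a3, 33.3% of Tbx2, and 13.3% each of Slc17a8 and Slc7a14.

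**Figure D1:**
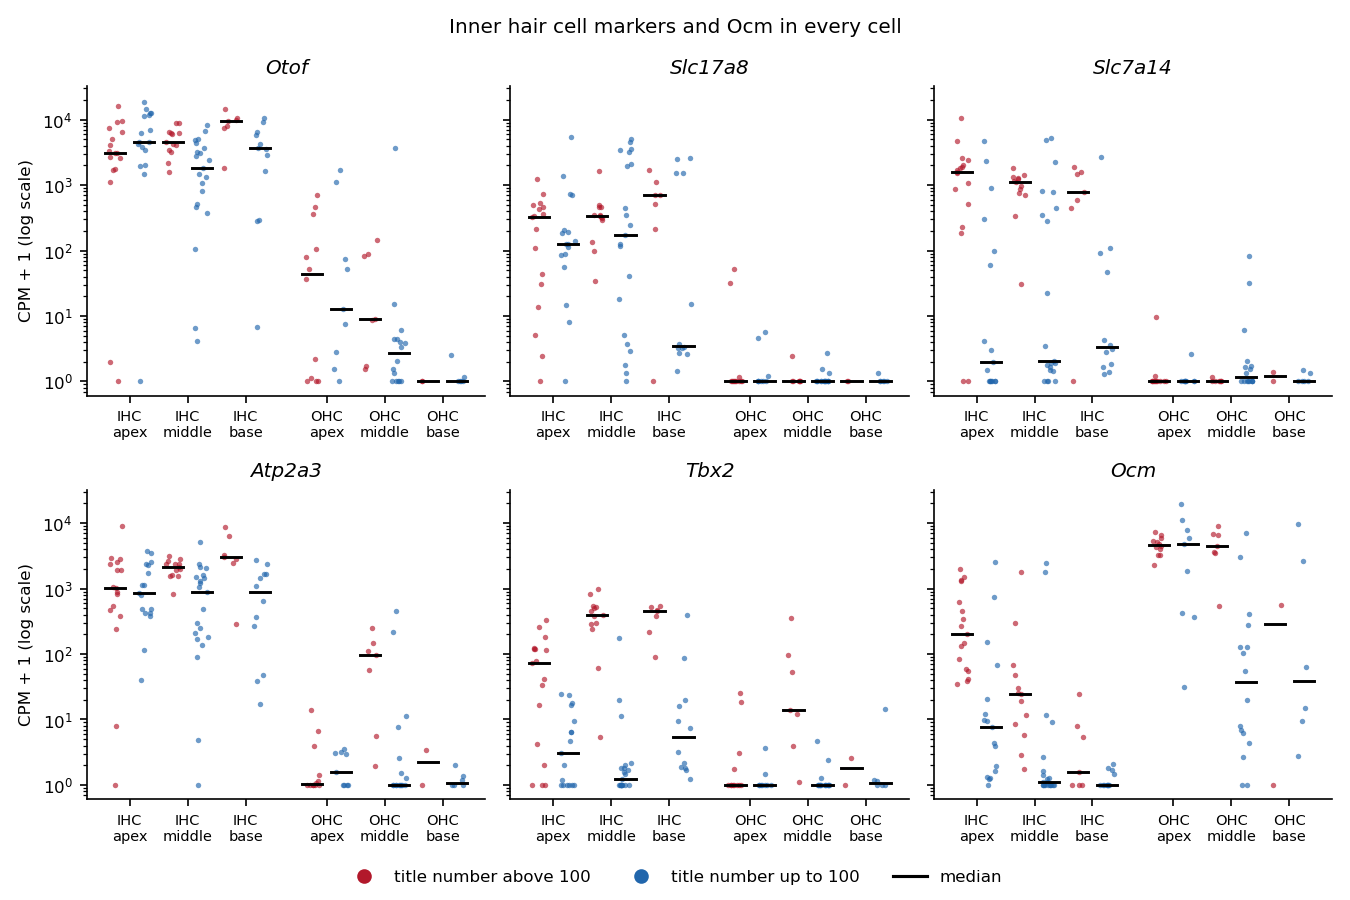
Level of the 5 IHC markers and of the OHC gene Ocm in every cell, as CPM + 1 on a log scale, by labelled type and region, with red points for title numbers above 100, blue for up to 100, and a black line at each median. Otof and Atp2a3 have medians near or above 1000 CPM in each IHC group, while Slc7a14 and Tbx2 stand high in the higher series and near the bottom in most lower cells.

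Levels of the markers were correlated across cells for some pairs and not for others. Over the 37 higher cells Spearman's correlation of CPM was 0.757 between Otof and Atp2a3, 0.525 between Otof and Slc17a8, and −0.0076 between Slc7a14 and Tbx2. Over the 50 lower cells the same pairs gave 0.342, 0.142 and −0.109. The points share totals and composition of their libraries, so these values are a description only.

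OHC markers had low medians over all IHCs, while Ocm stood higher in cells of the apex and the middle turn. Of 11 OHC markers 0 had a median of 10 CPM or more in IHCs and 7 had a median of 0. In OHCs themselves only 3 had a median of 10 CPM or more. In the higher series 5 of the 11 were read in 50 to 90% of thinned IHCs and 6 in under 50%, against 1 and 10 in the lower. Over all 15001 genes tested the same counts were 3907 and 10483 in the higher series, and 806 and 14089 in the lower. More genes of any kind thus reached 50% of cells in the higher series. Among the 5 OHC markers read in 50 to 90% of higher IHCs were Sri and Lbh. They stood at 86.1 and 83.3% of higher IHCs and 75.6 and 77.8% of all thinned OHCs. Ocm had a median of 4.38 CPM over all IHCs against 2447 CPM in OHCs. It was at or above 10 CPM in all 17 apical cells of the higher series, from 33.4 to 1989 CPM with a median of 198. In the middle turn of that series 9 of 13 cells reached 10 CPM, with a median of 23.4 and a highest value of 1761 CPM, and in the base 1 of 7, with a median of 0.562 CPM. In the lower series apical, middle and basal medians were 6.75, 0.113 and 0 CPM, while middle cells M_i_53 and M_i_54 reached 1815 and 2421 CPM and apical cell A_i_12 2530 CPM. Slc26a5 had a median of 15.6 CPM in higher apical cells, with a highest value of 318, and did not pass 4.17 CPM in any lower cell. Apical cells of the higher series also detected Otof at a median of 3090 CPM, so both sets of transcripts were read from the same libraries. Whether these reads came from the labelled cell was not tested.

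**Figure D2:**
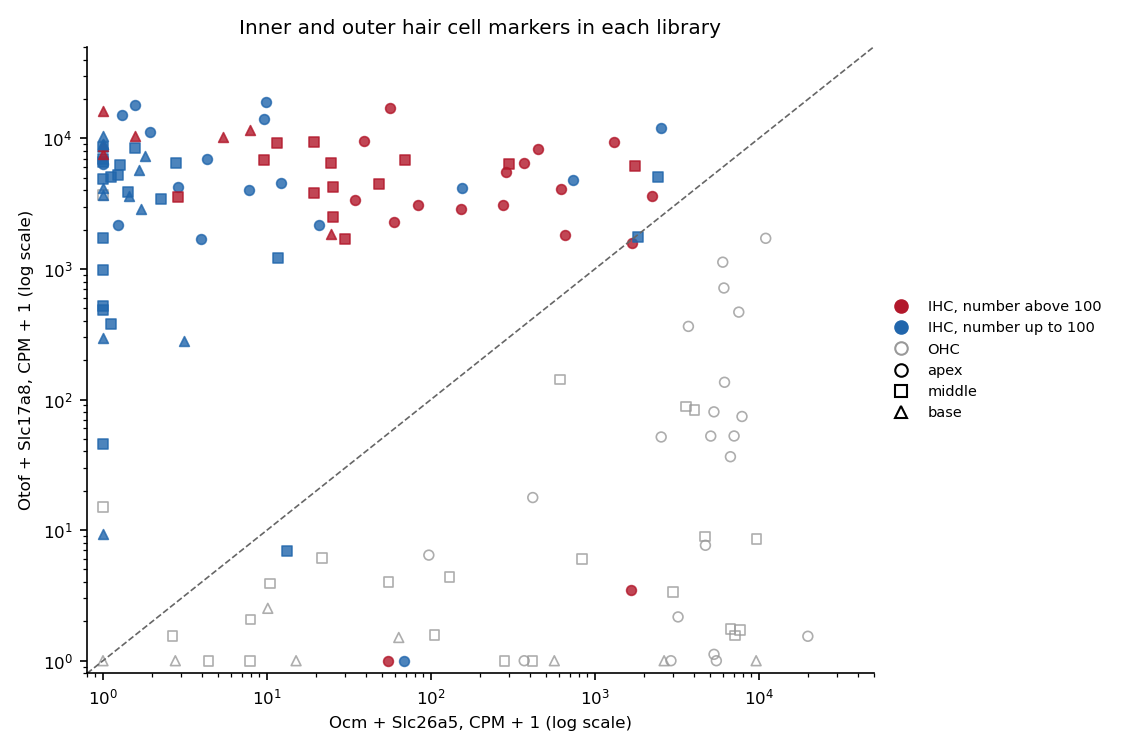
Otof plus Slc17a8 (vertical) against Ocm plus Slc26a5 (horizontal) in each library, as CPM + 1 on log scales; filled symbols are IHCs coloured by series, open grey symbols OHCs, and shapes give the region. Most IHCs lie above the dashed line of equality, and 6 IHC libraries lie below it.

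Few genes were read in nearly every IHC. After thinning, 151 genes, or 1.01% of the 15001 genes that reached 5 CPM in any of the 6 groups, were detected in 90% or more of the 83 cells. Of these 142 are protein-coding, 9 come from the mitochondrial genome and 2 encode ribosomal proteins. Among 33898 genes detected in any IHC, 66.7% were read in under 10% of cells. In the higher series 4.07% of the tested genes met that mark and in the lower 0.707%, and 92 of the 151 met it in both. The 151 genes took a median of 35.9% of a cell's counts, with a range of 16.4 to 55.4%. Of the 151, 80 also reached 90% of OHCs and 3 were read in under 50% of OHCs: Spock1, which encodes a secreted proteoglycan, Atp2a3 and Slc17a8.

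**Figure D3:**
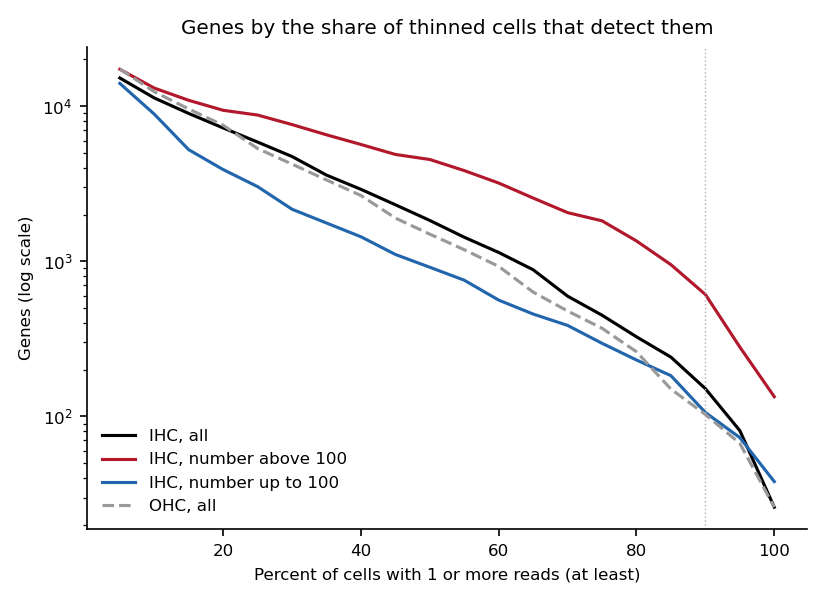
Number of genes (log scale) detected in at least a given percentage of thinned cells, for all IHCs, each series and all OHCs. At the dotted line of 90% the curve of all IHCs stands at 151 genes, that of the higher series at 611, and the other curves below the first.

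Per transcript length, Dpysl2 was the most abundant protein-coding gene of the IHCs that the naming rule admits. It encodes a cytoskeletal regulator of neurites, and its median was 16603 transcripts per 1000000 (TPM) against 5886 TPM in OHCs. Its CPM ran from 0 to 109200 with a median of 21112, and 78 of 87 cells exceeded 1000 CPM. Sdc4, a cell-surface proteoglycan, followed at 10864 TPM, then Actb, cytoplasmic beta-actin, at 7610 and Sod1, the cytosolic superoxide dismutase, at 7034 TPM. Otof ranked 20 in this list at 1702 TPM, against 0.514 TPM in OHCs. The median of Igfbp5, a binding protein of insulin-like growth factors, was 2964 TPM in IHCs and 198 TPM in OHCs.

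The naming rule took the 10 genes whose larger coefficient of variation of the 2 series was smallest, among those read in 90% or more of the thinned cells of each. Rorb, an orphan nuclear receptor, varied least, with coefficients of variation of 0.80 and 0.70 in the higher and lower series and a median of 10456 CPM. The chaperone gene Hsp90aa1 had 0.70 and 0.81, and Skp1a, a subunit of ubiquitin ligases, 0.81 and 0.72. Spock1 was uniform within each series, at 0.87 and 0.79, around medians of 322 and 2647 CPM, so it differed between them. The 3 genes named before it also stood lower in the higher series. Their medians in the higher and lower series were 2315 and 4261 TPM for Rorb, 1309 and 3287 for Hsp90aa1, and 1696 and 3917 for Skp1a. A small spread within each series is thus not a uniform level over all IHCs. Even among the 10 genes of smallest spread the SD within a series was 0.59 to 0.88 of the mean.

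Relative spread was smaller for genes of higher mean, except between the lowest ranges in the lower series. Genes with a mean of 1 to 10 CPM were read in a median of 10.8% of IHCs, those of 10 to 100 CPM in 30.1%, those of 100 to 1000 CPM in 60.2% and the 123 genes above 1000 CPM in 94.0%. In the same order the median coefficient of variation was 3.65, 2.17, 1.39 and 0.91 in the higher series and 4.39, 4.78, 3.11 and 1.37 in the lower. In each of the 4 ranges the value of the lower series was the larger.

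**Figure D4:**
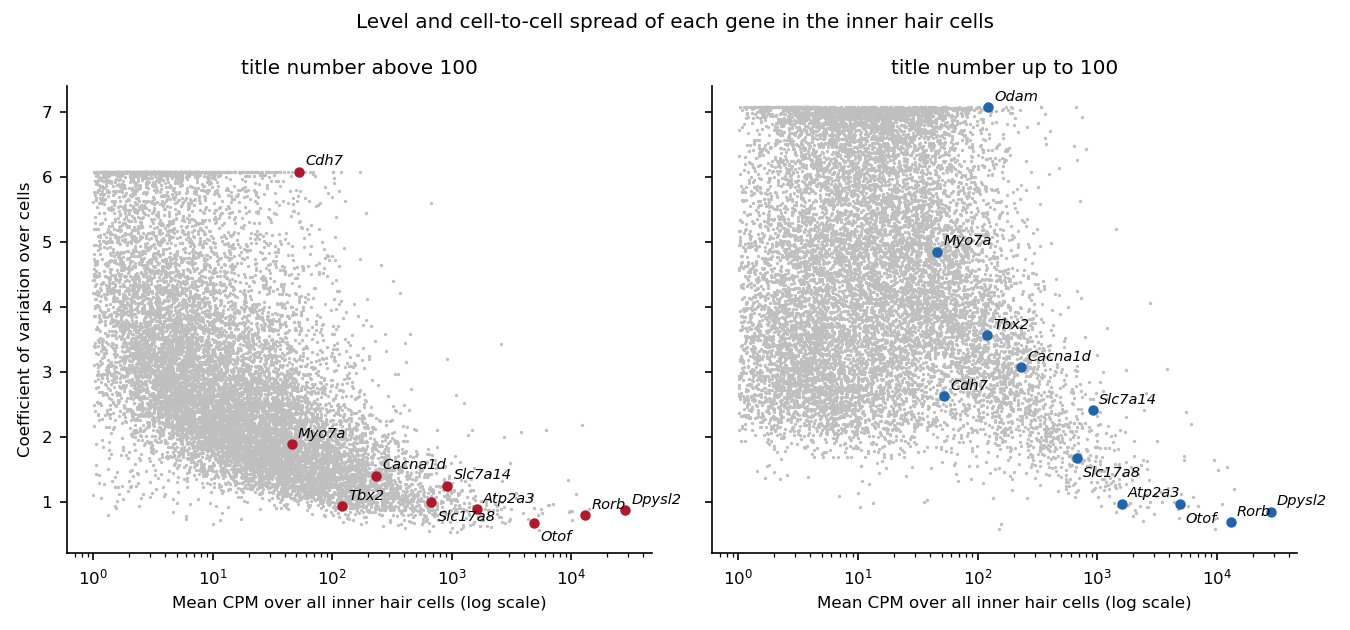
Coefficient of variation over cells against mean CPM (log scale) for each gene with a mean of at least 1 CPM, in the higher series (left) and the lower (right), with named genes marked. Points along the upper edge are genes read almost wholly in 1 cell, and Rorb and Dpysl2 lie at the lower right in both panels.

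Some genes with a high mean were carried by 1 cell. Vmn1r214, a vomeronasal receptor gene, averaged 340 CPM over the 87 cells, but 1 cell of the lower series reached 29586 CPM and held nearly all its reads, and 82 cells had none. BC028528 reached 58331 CPM in 1 cell, Odam 10654 CPM and the olfactory receptor gene Olfr1030 8776 CPM, each with 95.5% or more of the gene's counts in that cell. The 10 genes that the rule named for a low share of cells were read in at most 4.82% of thinned IHCs. Not all were carried by 1 cell. Cep112os1, among the 10, had 164 CPM in the pooled middle cells of the lower series and 720 CPM in its pooled basal cells. A mean over cells does not describe such genes.

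The synaptic genes were detected unevenly. Of all tested genes 12.2% were read in 50% or more of thinned IHCs (5.81% at 5 reads) and 9.95% in OHCs, and the counts below are to be read against these shares. Among 24 genes of vesicle loading, fusion and recycling 13 met it in IHCs, among 12 ribbon and active zone genes 2, and among 8 genes of the presynaptic calcium channel and its regulators 2. In OHCs the counts were 13, 1 and 2. Ctbp2, whose product Ribeye forms the ribbon, was read in 48.2% of IHCs, at 63.9% in the higher and 36.2% in the lower series, and Bsn, which anchors the ribbon, in 28.9%. Erc2, an active zone scaffold gene, had 74.7%. Rims2, a tether of calcium channels, was read in 55.4% of IHCs against 20% of OHCs, with medians of 95.2 and 0.261 CPM in the higher and lower series.

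Cacna1d, the pore-forming subunit of the presynaptic calcium channel, was read in 69.9% of IHCs and 82.2% of OHCs, with medians of 182 and 1.99 CPM in the higher and lower series. Cabp2, a calcium-binding regulator of that channel, was read in 68.7% of IHCs and 33.3% of OHCs. Dnm1, a dynamin of vesicle recycling, stood at 80.7% of IHCs, and Cplx2, a complexin, at 74.7%, against 53.3 and 73.3% of OHCs. Of the 6 genes at the contact with efferent fibres, which inhibit hair cells, 0 reached 50% of IHCs. Chrna9, the acetylcholine receptor subunit, was read in 41.7% of higher and 2.13% of lower cells.

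With the series pooled, genes of the hair bundle were present in most IHCs for a part of each list. Of 10 genes of the transduction complex 5 were read in 50% or more of IHCs, of 12 Usher and link protein genes 5, and of 27 genes of the stereocilia actin core 14. In OHCs the counts were 6, 4 and 10. The series differed, as 2, 5 and 7 genes of these lists stayed under 50% of higher IHCs, and 7, 11 and 17 under 50% of lower ones. Cib2, a calcium-binding subunit of the transduction complex, was read in 84.3% of IHCs and Tmc1, the channel's pore subunit, in 71.1% of IHCs and 71.1% of OHCs. Loxhd1 stood at 74.7% and Lhfpl5 at 66.3%, and Pcdh15 and Cdh23, the tip-link cadherins, at 48.2 and 63.9%. Actb was read in every thinned IHC, Lmo7 in 95.2% and Myo6, the minus-end-directed myosin of hair cells, in 94.0%.

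Myo6 was both high and shared, with a median of 2297 CPM and 79 of 87 cells at 10 CPM or more. Myo7a, the myosin of the tip-link anchor, had a median of 1.46 CPM, at 8.92 in the higher and 0.864 in the lower series, and was read in 59.0% of thinned IHCs. Ptprq, a phosphatase of the bundle's shaft links, was read in 65.1% of IHCs against 40% of OHCs, and Myo3a in 53.01% against 20%. A commonly used hair cell gene such as Myo7a was therefore less widely read here than Myo6, Otof or Atp2a3.

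Calcium buffers and sensors had a larger share of members in 50% or more of IHCs than any other hair cell list apart from the IHC markers. Of 12 genes 9 reached 50% of IHCs, and 3 reached 90%. In OHCs 10 of the 12 reached 50% and 2 reached 90%. Calb2, which encodes calretinin, was read in 94.0% of thinned IHCs, Calm2 in 90.4% and S100a1 in 86.7%. Pvalb was read in 67.5%. Of 11 pump and exchanger genes 4 reached 50%, led by Atp2b1, a plasma membrane calcium pump, in 100% and Atp2a3 in 97.6%. Atp2b2, the plasma membrane pump of the bundle, was read in 65.1% of IHCs and 82.2% of OHCs, and the ubiquitous Atp2a2 in 51.8% of IHCs.

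Few potassium channel genes were widely read, with 1 of 18 in 50% or more of IHCs. That gene, Kcnma1, encodes the large-conductance calcium-activated channel of mature IHCs and was read in 72.3% of IHCs and 44.4% of OHCs. Kcna10 was read in 40.96% of IHCs against 6.67% of OHCs, with 20 of 37 higher and 3 of 50 lower cells at 10 CPM or more.

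Among 16 transcription factor genes of hair cells 7 reached 50% of IHCs. Zbtb20 was read in 92.8%, Nr2f2 in 85.5% and Pou4f3, a regulator of hair cell survival, in 75.9%. Pou4f3 had medians of 313 CPM in the higher and 5.59 CPM in the lower series. Ikzf2, a regulator of OHC identity, was read in 59.0% of IHCs at a median of 2.51 CPM and in 88.9% of OHCs at 83.0 CPM. Atoh1, which specifies hair cells in the embryo, was read in 7.23%.

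**Figure D5:**
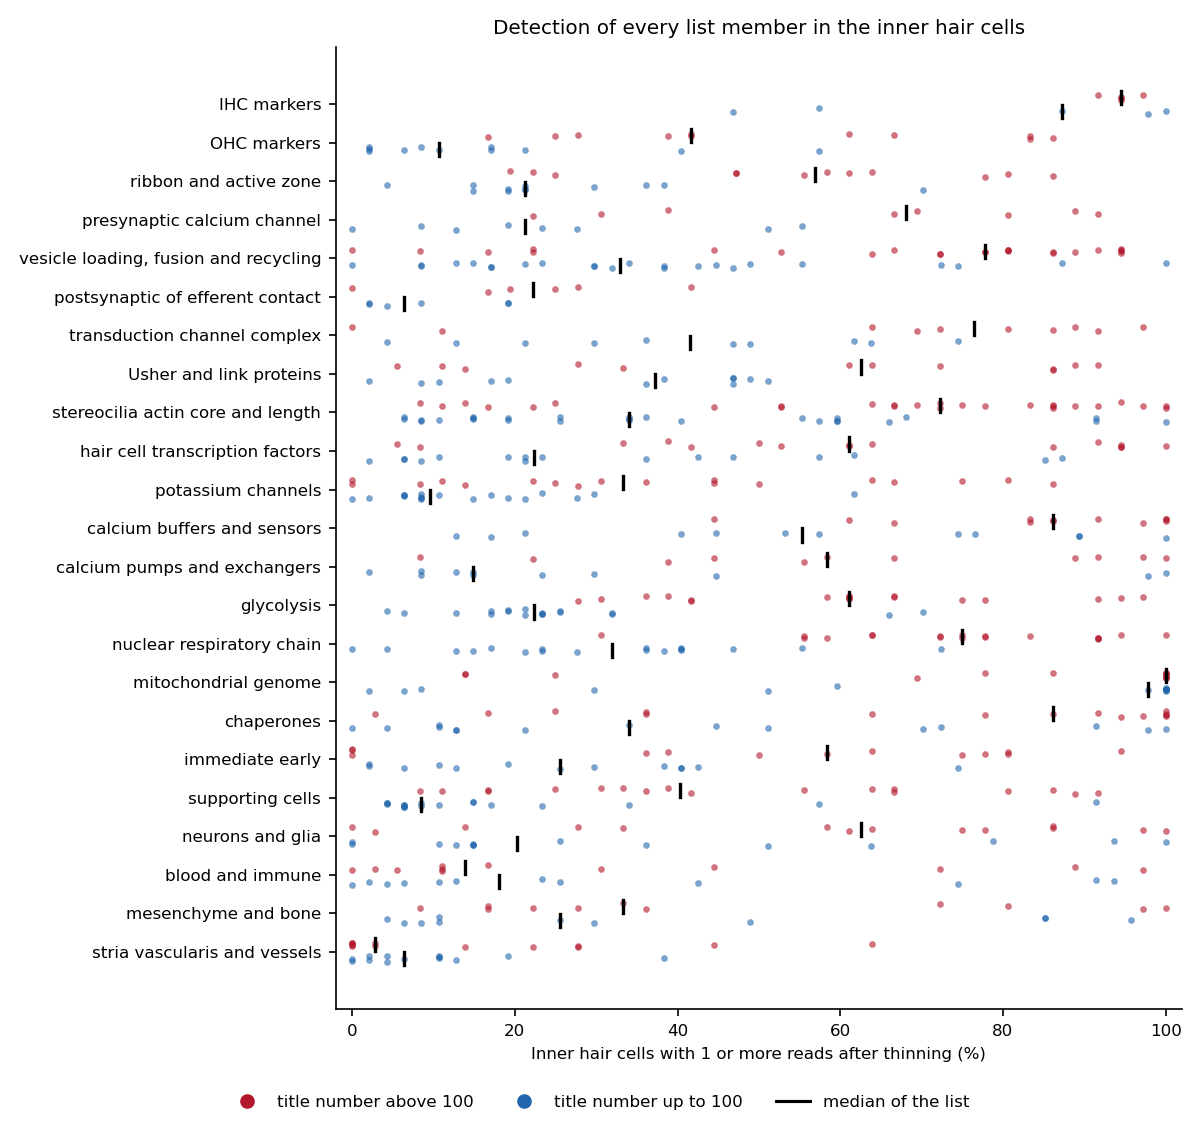
Percentage of thinned IHCs with a read of each list member, with 1 point per gene and series (red for title numbers above 100, blue for up to 100) and a black bar at the median of the list. The median of the blue points lies to the left of that of the red points for most lists, and to the right for the blood and vessel lists.

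Transcripts of other cell types were read in the IHC libraries too. Of 79 genes that mark supporting cells, neurons and glia, blood, mesenchyme or the stria and vessels, 17 were read in 50% or more of thinned IHCs. The haemoglobin gene Hba-a1 was read in 95.2% of IHCs and 97.8% of OHCs, with an IHC median of 177 CPM and a highest value of 14827 CPM. The collagen gene Col1a1 stood at 96.4 and 100% with an IHC median of 190 CPM. In blood and immune genes 2 of 12 had medians of 10 CPM or more and 8 had medians of 0, and the summed list ran from 0 to 23613 CPM with a median of 358 in IHCs and 1618 in OHCs. Among 11 mesenchyme and bone genes 7 had medians of 0 in IHCs. The sum ran from 0.988 to 24456 CPM, with medians of 3505 CPM in IHCs and 3120 in OHCs. Its members differed in direction, as Sparc had medians of 1042 CPM in IHCs and 88.5 in OHCs, and Col1a1 190 and 981. In the pooled counts 0 of the 11 were 2-fold or more higher in IHCs and 4 lower, against 39.3 and 17.3% of all genes. The part of these transcripts of other cell types in the results above was not tested.

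Genes that mark supporting cells, which surround and separate the hair cells, had a larger summed level in the higher series. Of the 18 markers 13 had an IHC median of 0, and the sum had medians of 2718 CPM in the higher and 733 CPM in the lower series, against 527 CPM in OHCs. Gjb2, the main connexin gene of supporting cells, had a median of 480 CPM in the higher and 0 in the lower series, with 30 of 37 and 3 of 50 cells at 10 CPM or more. Slc1a3, the glutamate transporter of the cells that border IHCs, was read in 71.1% of IHCs and 35.6% of OHCs. Among 14 neuronal and glial genes 5 were read in 50% or more of IHCs, and Nefm was read in every thinned IHC at a median of 874 CPM. The part of supporting cell or glial RNA in the difference between series was not tested.

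IHC profiles resembled each other only modestly, and more in the higher series. Over 15001 genes the median Spearman correlation between 2 IHCs of 1 series was 0.298, with 0.422 among higher and 0.267 among lower cells. Pairs from the same region had a median of 0.312 and pairs from different regions 0.292. An IHC and an OHC of the same series had 0.358 in the higher and 0.222 in the lower series, below the IHC pairs in each. Pairs of OHCs had 0.330 and 0.206, lower still. OHC libraries thus correlated less with either type, and a higher correlation with IHCs than with OHCs does not by itself mark an IHC. Of the 87 IHCs 85 had a higher median correlation with the other IHCs of their series than with its OHCs, and the exceptions were A_i_17 and M_i_52. The apical cells A_i_110 and A_i_120, in which 0 of the 5 IHC markers reached 10 CPM, were among the 85. The points share depth and library series, and the values are descriptive.

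In the scalings for which genes were counted, more were higher in the higher than in the lower series of IHCs. Counts were summed over the cells of each series and region and scaled by the trimmed mean of M values (TMM), and the difference is that of log2(CPM + 1). Of 13212 tested genes 1802 (13.6%) were at least 2-fold higher in the higher series in all 3 regions and 700 (5.3%) in the lower, so 72.0% of those called lay on the higher side. Scaled by total counts the split was 94.8%, with 3258 against 177 genes, and with equal weight per cell 94.3%. The median over all genes was 0.86 log2 units towards the higher series with TMM, 0.06 with median-of-ratios factors and 1.66 with totals. The shift thus depended on the scaling, and the split with median-of-ratios factors was not counted. The genes named next were chosen as the 5 of largest difference in each direction, so their values are a description. Heyl, a target of Notch, was higher by 6.76, 7.26 and 7.26 log2 units in apex, middle and base, and Otog, a tectorial membrane gene, by 5.25, 7.39 and 6.03. Spock1 was lower in the higher series, by median CPM as given above. Zfp180 differed by −6.18, −7.25 and −6.35 and Enpp2, a secreted lysophospholipase, by −5.10, −6.06 and −6.36.

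More genes stood higher in IHCs than in OHCs. Summed by type and region and averaged over the 3 regions, 5889 of 15001 genes (39.3%) were 2-fold or more higher in IHCs and 2595 (17.3%) lower, which puts 69.4% of those called on the IHC side. With median-of-ratios factors it was 57.5%. Within the higher series 7469 genes were higher and 2755 lower, and within the lower series 5372 and 1519. The median over all genes was 0.59 log2 units towards IHCs with TMM and 0.26 with median-of-ratios factors. Of the 5 IHC markers all were higher, with a median difference of 8.06 log2 units, and of the 11 OHC markers 10 were lower; both lists were chosen for that contrast. Of 12 ribbon and active zone genes 11 passed the filter, 7 were 2-fold or more higher in IHCs and 0 lower, with a median of 1.19 log2 units. Of 18 potassium channel genes 14 passed, 9 were higher and 1 lower, with a median of 1.93. Such a shift was not particular to hair cell genes. Of 18 supporting cell genes 16 passed, 10 were higher and 2 lower, with a median of 1.98.

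Genes read in many more IHCs than OHCs in both series were, besides Slc17a8 and Atp2a3, Fcrlb, Ripor3, Kifap3, Ccn1, Ppp2r2b, Npas2, Spock1 and Map4k4. Their detection chose them, so the shares are a description. Fcrlb was read in 86.7% of IHCs and 22.2% of OHCs, and Ripor3 in 74.7 and 6.67%. Kifap3, which encodes a subunit of the kinesin motor complex, was read in 84.3 and 17.8%. Npas2, a transcription factor of the circadian clock, was read in 84.3 and 28.9%, with 88.9% of higher and 80.9% of lower IHCs.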

How the data were processed

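Each library holds the RNA of 1 hair cell, read on a HiSeq 2500 per the labels. The authors deposited raw counts per gene for 139 cells in 55335 lines. Trimmomatic, HISAT2, featureCounts and Subread 1.4.6 with GRCm38 (mm10) are named in the submitters' processing notes, without their roles. The use of strand, molecular identifiers and reads with several places is not stated there. Near-identical genes may thus have split or lost reads, and antisense reads may be merged. Columns were matched to titles, and 0 columns stayed unused. GENCODE M21 gave symbols and exon lengths for 54587 lines with their version and 55154 without. The 181 lines without a symbol held 0.00885% of counts, and of 106 symbols on more than 1 line the line with most counts was used.

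CPM used all counts of a cell, TPM the union of exons. Detection used cells thinned without replacement to 500000 counts (seed 11), with 1 read as detected. A library stood apart with under 3000 genes, under 200000 counts, over 10% mitochondrial counts, over 20% in 1 gene, or more Ocm plus Slc26a5 than Otof plus Slc17a8. Pooled sums were scaled by TMM in edgeR 4.0.16, with DESeq2 1.42.0 size factors as an alternative, a filter of 5 CPM and a pseudocount of 1, which understates differences of low genes. Python 3.11.15 and R 4.3.3 were used, and the steps were tested on simulated data. As no animal is named, no test between groups was run.

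The members, the 23 gene lists (301 genes, some in more than 1 list) and the rules were chosen with earlier results of these data known. Named were list members and, without predicted, ribosomal, mitochondrial and pseudogene symbols, the 20 genes of highest median TPM, the 10 of smallest spread, the 10 read in fewest cells with a mean of 50 CPM or more, the 10 with the largest difference in detection from OHCs, and 5 per direction between series. Single cells singled out were chosen after their values were seen. Some named genes are not reported here. Alternatives changed thinning, detection limit, scaling, filter, pseudocount, weighting and the libraries used.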

Additional observations from a re-analysis of the deposited data

How the results depend on the processing

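Shares of detection depended on the limit and on the series. The share of IHCs with 4 or more markers was 92.0% without thinning, 66.3% at 5 reads, 64.4% at 10 CPM and 91.7% in the higher series alone. The number of genes in 90% of IHCs was 316 without thinning, 228 thinned to 1000000 counts, 83 at 5 reads, 62 at 10 CPM and 611 in the higher series. Of the genes of the hair cell and metabolic lists, 93 of 230 were read in 50% of IHCs, with 61 at 5 reads, 147 without thinning, 155 in the higher and 56 in the lower series. For the lists of other cells 17 of 79 became 27 without thinning and 30 in the higher series. The median of Tbx2 was 216 CPM in the higher series alone. With shares for mitochondrial counts and 1 gene set at 5% and 10% of the counts, 25 libraries stood apart. With a pseudocount of 5, 3157 genes were 2-fold higher in IHCs. The other 52 values moved by less than the spread between cells, the interval of the share or 1.5 times. Among them were those without the 12 libraries that stood apart or without the 2 closest pairs of cells. For marker levels this says little, since the spread exceeded the median of each marker and no fall could count as moved. For Slc7a14 the spread was 1585 CPM around a median of 277 CPM, and the median of 1.90 CPM in the lower series alone is among the 52. The 10 CPM limit, the closest pairs and the series for marker levels and lists were chosen after seeing the data. No paired analysis was possible because the labels name no animal and do not say what the title numbers stand for. Depth limits detection, since 1 read in a thinned cell stands for 2 CPM, and lower levels were not reliably detectable.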

Other observations

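Immediate early genes are those that cells transcribe within minutes of a stimulus or of handling. Of 13 such genes 4 were read in 50% or more of thinned IHCs and 1 in OHCs, against 12.2 and 9.95% of all genes, and 7 were 2-fold or more higher in the pooled IHCs, with 1 lower, against 39.3 and 17.3% of all genes. Fos, the founding member of the group, was read in 49.4% of IHCs and 15.6% of OHCs. Its median was 8.16 CPM in the higher series and 0.519 CPM in the lower, and the highest cell reached 1561 CPM. Btg2, an antiproliferative gene of the same response, was read in 57.8 and 20%, and 26 of 37 higher and 17 of 50 lower IHCs had 10 CPM or more. Atf3 was read in 1.2% of IHCs. How the cells were collected is not described in the labels, and its part in these values was not tested.

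Genes of energy metabolism were read unevenly. Of all tested genes 12.2% were read in 50% or more of IHCs and 9.95% in OHCs. Only 1.01% were read in 90% or more of IHCs. Of 13 protein genes of the mitochondrial genome 7 were read in 90% or more of IHCs, among them mt-Co1, a cytochrome oxidase subunit, in 100% at a median of 1266 CPM, while mt-Atp8 was read in 7.23%. Of 18 nuclear genes of the respiratory chain 8 reached 50% of IHCs, led by Atp5a1, a subunit of ATP synthase, in 84.3%. Of 18 glycolysis genes 3 did. In OHCs 7 of the 13 mitochondrial genes reached 90%, and 8 of the nuclear respiratory and 6 of the glycolysis genes reached 50%. By series, 6 glycolysis genes stayed under 50% of higher and 16 under 50% of lower IHCs. Gapdh was read in 94.4% of higher and 25.5% of lower cells, and Aldoa in 81.9% of all. Of 15 chaperone genes 8 reached 50% of IHCs and 7 reached 50% of OHCs. Hsp90aa1, Hsp90ab1 and Hsp90b1 reached 90% of IHCs, while the heat-inducible Hspa1a was read in 1.2%.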
